A study of Mus musculus with 12 samples.

Results

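The Bcl2 family decides at the mitochondrion whether a stressed cell lives or undergoes apoptosis. Its anti-apoptotic proteins (Bcl2, Mcl1, the Bcl2l1 product Bcl-xL and the Bcl2a1 product A1) hold the effectors Bax and Bak1 in check, and the BH3-only proteins (Bim, encoded by Bcl2l11, Puma, encoded by Bbc3, Bid and Bad) carry the death signals that undo this block. Once freed, Bax and Bak1 open the outer mitochondrial membrane, cytochrome c leaves, and caspases are activated. In macrophages, growth factors and inflammatory signals act on this balance, in part through transcription of family genes such as Bcl2a1 and Bcl2l11, and the Mcl1 protein is known for its short life.

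The genes described here are 10 members of this family: Bcl2, Mcl1, Bcl2l1 and Bcl2a1b as anti-apoptotic genes, Bax and Bak1 as effectors, and Bcl2l11, Bbc3, Bid and Bad as BH3-only genes. They were chosen by name, found through their Ensembl identifiers, and are 10 of the 47643 genes listed. All 10 had reads in each of the 12 libraries, from 7 reads for Bcl2a1b in 1 F4/80lo library to 2371 for Mcl1 in another, and all 10 passed the filters on low values in every comparison.

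The study asked how blocking microsomal prostaglandin E synthase-1 (mPGES-1), the inducible enzyme that makes prostaglandin E2, alters macrophages while an acute peritonitis resolves. All animals were female C57BL/6 mice, 8 to 12 weeks old, and all of them, controls included, received zymosan at 5 mg/kg into the peritoneum. From day 1 each mouse was injected daily with vehicle (VEH) or with compound III (CIII), an inhibitor of mPGES-1 given at 25 mg/kg, and on day 6 peritoneal F4/80lo macrophages, regarded as infiltrating cells of monocytic origin, and F4/80hi macrophages, regarded as resident cells, were sorted and their 3′ mRNA ends were sequenced. There were 3 libraries in each of the 4 groups: F4/80lo VEH, F4/80lo CIII, F4/80hi VEH and F4/80hi CIII. No library came from mice without zymosan or without injections. The study's methods describe its data in general as coming from independent experiments. Neither they nor the labels say whether each library came from a single mouse or a pool, so p-values measure the spread between these libraries only.

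Depth was modest and uneven: the libraries held 426624 to 3389448 reads assigned to genes. The 3 reads compatible with an observed 0 therefore amounted to 0.885 to 7.03 reads in each 1000000 (RPM, counting error only). The libraries with replicate number 3 stood apart: the ribosomal RNA-like gene Gm42418 accounted for 2.65% to 14.3% of reads in these 4 and for no more than 0.579% in any of the other 8. Of the genes behind the sort, Adgre1, which encodes F4/80, differed by -1.69 on the log2 scale (F4/80lo minus F4/80hi, limma adjusted p = 0.101), whereas Mertk, whose protein was the second marker of that gate, differed by only -0.19 (adjusted p = 0.838). The resident macrophage factor Gata6 differed by -2.59 (adjusted p = 0.286). In these bulk samples, fewer cells of a type and less RNA per cell cannot be told apart.

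The feature that gives the BH3-only genes their name, and that most of the other members share, is a short helix whose core reads leucine, any 3 residues, a small residue (glycine, alanine or serine) and aspartate. The following coding sequences are shown because they let the roles be compared at the site through which family members bind each other. Each runs 5′ to 3′ on the coding strand, was taken from the GENCODE M21 transcripts of GRCm38, lies within 1 coding exon, and has the 6 codons of the core in capitals with 12 bases on either side.
Bcl2, chr1:106712572-106712613, minus strand: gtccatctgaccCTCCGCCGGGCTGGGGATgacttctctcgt
Mcl1, chr3:95659424-95659465, plus strand: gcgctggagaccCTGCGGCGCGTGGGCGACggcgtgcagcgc
Bcl2l1, chr2:152829694-152829735, minus strand: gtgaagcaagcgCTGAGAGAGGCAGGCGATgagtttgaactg
Bax, chr7:45465994-45466035, minus strand: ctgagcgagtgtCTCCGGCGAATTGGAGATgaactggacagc
Bak1, chr17:27022528-27022569, minus strand: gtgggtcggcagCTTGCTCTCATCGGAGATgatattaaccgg
Bcl2l11, chr2:128147138-128147179, plus strand: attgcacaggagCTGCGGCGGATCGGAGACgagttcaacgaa
Bbc3, chr7:16313761-16313802, plus strand: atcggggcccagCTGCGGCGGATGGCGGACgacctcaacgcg
Bid, chr6:120897286-120897327, minus strand: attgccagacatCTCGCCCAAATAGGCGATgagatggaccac
Bad, chr19:6950780-6950821, plus strand: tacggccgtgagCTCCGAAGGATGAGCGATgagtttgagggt

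The core was found exactly 1 time in the coding sequence of 9 of the 10 genes and 0 times in that of Bcl2a1b. It is a loose motif, present in 33.8% of the 21756 coding genes of the annotation, so a match is a description and not evidence of a working helix. The absence of these letters in Bcl2a1b says nothing about what its protein binds.

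**Figure D1:**
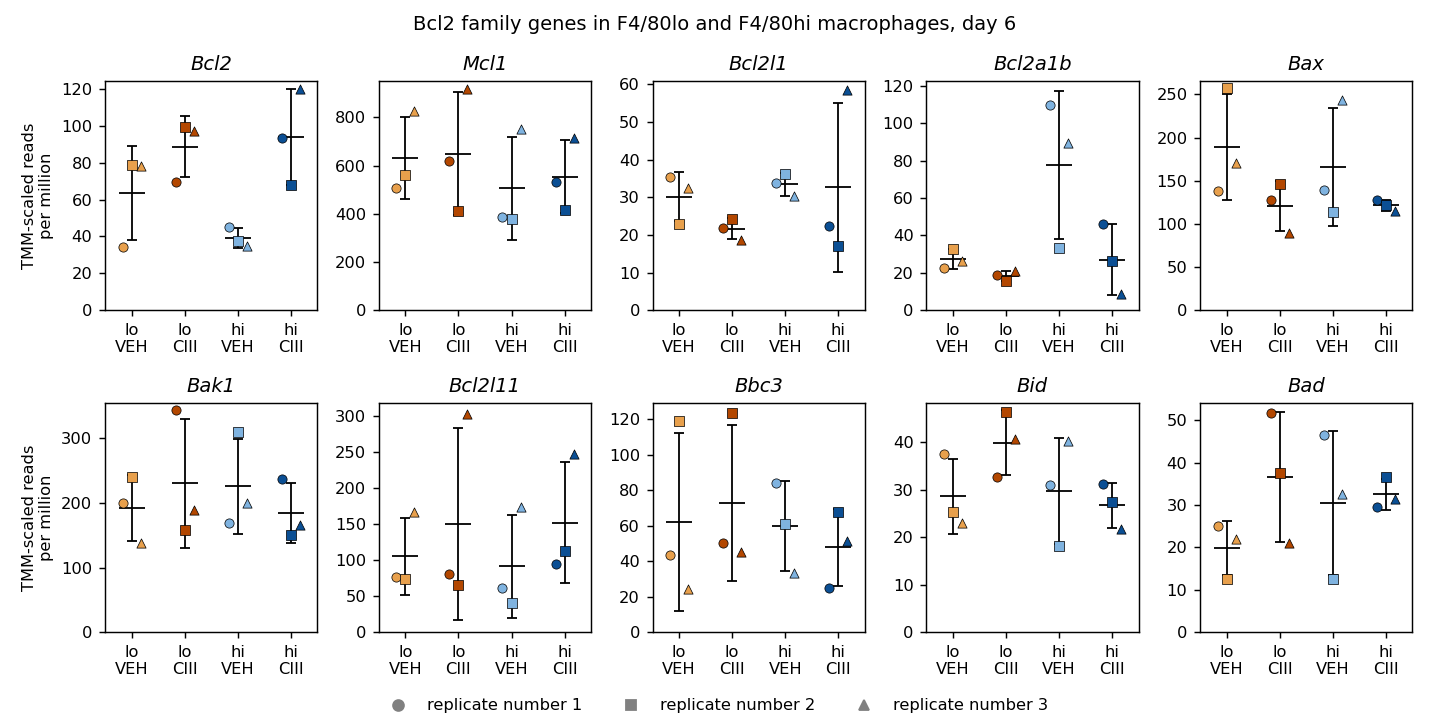
TMM-scaled reads per 1000000 (RPM, linear axis, from 0) for the 10 genes in each of the 12 libraries, with the group mean and SD as a bar and whiskers and the replicate number as the symbol. The 3 Bcl2 values of F4/80hi VEH, 34.7 to 45.0, lie below the 3 of F4/80hi CIII, 67.9 to 120, and for Mcl1 and Bcl2l11 the replicate number 3 library (triangle) is the highest of each group.

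With CIII, 0 of the 10 genes passed an adjusted p of 0.05 in F4/80lo macrophages and 0 of 10 in F4/80hi macrophages (limma with Benjamini-Hochberg adjustment over all genes tested). This was also the background, since 0% of the 10718 genes tested in F4/80lo and 0% of the 10499 tested in F4/80hi did so. At an unadjusted p under 0.05, 0 members stood out in F4/80lo, where 2.7% of all genes did, and 2 in F4/80hi, Bcl2 and Bcl2a1b, where 3.93% did. The VEH and CIII libraries did not overlap for 1 member in F4/80lo (Bcl2a1b, lower with CIII), against 8.73% of all genes, and for 1 in F4/80hi (Bcl2, higher with CIII), against 10.5% of all genes. In F4/80lo 7 members had a positive difference and 3 a negative one, with a median log2 difference of 0.25 beside -0.05 for all genes. In F4/80hi 4 were positive and 6 negative, with a median of -0.21 beside 0.05. With replicate number as a block, still with 0 members past an adjusted p of 0.05, the members at an unadjusted p under 0.05 were 1 in F4/80lo (Bax), against 6.89% of all genes, and 3 in F4/80hi (Bcl2, Bcl2a1b and Bcl2l11), against 11.3%.

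Bcl2, the founding anti-apoptotic member, had the smallest p of the 10 genes, in F4/80hi macrophages. Its deposited normalized counts were 42.5, 35.3 and 32.5 in the VEH libraries with replicate numbers 1, 2 and 3. They were 84.5, 62.5 and 109 in the corresponding CIII libraries. Each CIII library thus lay above each VEH library, and the VEH values were the more tightly grouped, at 36.8 ± 5.19 against 85.3 ± 23.2 (SD, n = 3 each). The log2 difference was 1.16 (SE 0.36, 95% interval 0.35 to 1.98, limma adjusted p = 0.992), which placed Bcl2 at rank 60 of 10499 genes by p. Within replicate numbers the difference was positive in 3 of 3, from 0.81 to 1.71. A fit with replicate number as a block gave an adjusted p = 0.202, and without the number 3 libraries the log2 difference was 0.89 (adjusted p = 0.663). The study singled out Bcl2 in F4/80hi macrophages from these same libraries, so its direction here is not independent evidence.

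In F4/80lo macrophages Bcl2 stood at 34.9, 79.6 and 74.6 normalized counts with VEH and at 68.1, 103 and 97.3 with CIII. The groups overlapped, because the lowest CIII library lay below 2 of the VEH libraries, although within each replicate number the CIII library was the higher one (0.37 to 0.94 on the log2 scale). The fitted log2 difference was 0.56 (SE 0.42, interval -0.36 to 1.48, limma adjusted p = 0.9996). Subtracting the Bcl2 response of F4/80hi from that of F4/80lo gave -0.60 (SE 0.54, interval -1.75 to 0.55, adjusted p = 0.999), so a difference between the subpopulations was not shown, and the interval spans both no difference and a response larger in F4/80hi by more than 1.5 on the log2 scale.

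Lymphocytes carry Bcl2 mRNA. The sort took CD11b+ cells and classed CD11b- leukocytes as lymphoid, yet lymphocyte markers had reads and varied across the libraries. The summed level of the 10 B cell markers was 2.81, 0 and 45.9 RPM in the F4/80hi VEH libraries 1, 2 and 3, and 74.3, 19.6 and 13.9 in the CIII libraries. The summed level of the 10 T and NK cell markers was 1.39 to 80.7 with VEH and 2.41 to 11.7 with CIII. With CIII the B cell sum was higher in replicate numbers 1 and 2 and lower in number 3, while Bcl2 was higher in 3 of 3. Between 1 and 10 of the B cell markers were at 0 in a library, and the part of these cells in the Bcl2 values was not tested.

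Macrophage markers varied as well in F4/80hi. Of the 8 genes checked for the sorting gate, 7 had a positive difference with CIII, with a median log2 difference of 1.17. F4/80hi cells were taken by F4/80 and MerTK, and MHCII served to part F4/80lo macrophages from monocytes. Adgre1, which encodes F4/80, differed by -0.12, Itgam by 0.21 and Ptprc by 0.85, beside 2.08 for H2-Eb1 and 1.49 for Cd74. Mertk (0.77) and the MHC class II genes H2-Aa (1.65) and H2-Ab1 (1.98) were at an unadjusted p under 0.05, and 0 of the 8 passed an adjusted p of 0.05 (limma). Their summed level was 6359 to 11037 RPM with VEH and 9818 to 20046 with CIII. The 6 markers of resident peritoneal macrophages had differences of -1.30 to -0.00032 with a median of -0.43, and summed to 166 to 2530 RPM with VEH and 271 to 1394 with CIII. None of these 14 genes was at 0 in an F4/80hi library, and their part in the Bcl2 difference was not tested.

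**Figure D2:**
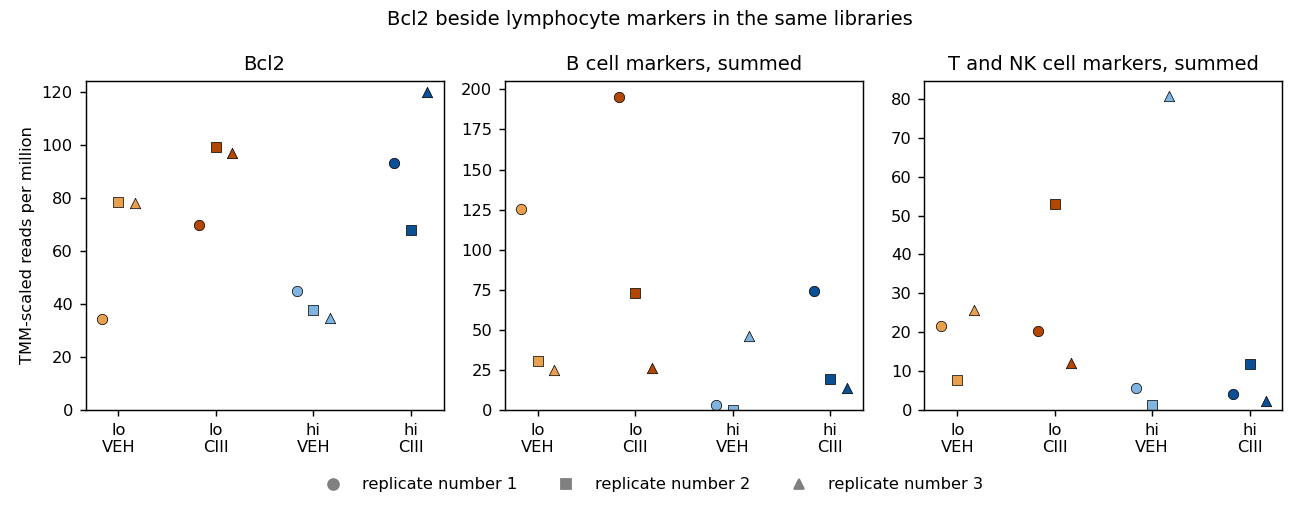
Bcl2 (left), the summed level of 10 B cell markers (middle) and that of 10 T and NK cell markers (right) in TMM-scaled reads per 1000000 (RPM, linear axes, from 0) for the 12 libraries by group, with the replicate number as the symbol. From F4/80hi VEH to CIII the B cell sum goes from 2.81 to 74.3, from 0 to 19.6 and from 45.9 to 13.9 in numbers 1, 2 and 3, and Bcl2 goes up in each.

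Bcl2a1b encodes 1 of the mouse copies of A1, an anti-apoptotic protein of leukocytes that NF-kappaB signalling induces. In F4/80hi macrophages it had 104, 31.4 and 83.8 normalized counts with VEH and 41.9, 24.0 and 7.66 with CIII. The CIII library was the lower one within each replicate number, yet the groups overlapped, because VEH library 2 lay below CIII library 1. The log2 difference was -1.65 (SE 0.66, interval -3.14 to -0.16, limma adjusted p = 0.992), with -3.29 in replicate number 3 and -0.37 in the number with the smallest difference. A fit with replicate number as a block gave an adjusted p = 0.252, and without the number 3 libraries the difference was -0.83. Bcl2a1b is also on the study's list for F4/80hi, chosen from these libraries, and is likewise no independent evidence.

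In F4/80lo macrophages the Bcl2a1b values were 23.3, 33.4 and 25.3 with VEH and 18.4, 16.0 and 21.0 with CIII. Here the groups did not overlap, but the distance was small, and the log2 difference of -0.53 (SE 0.47, interval -1.56 to 0.50) had an interval that includes 0 (limma adjusted p = 0.9996). These values rest on 7 to 76 reads per library. Subtracting the Bcl2a1b response of F4/80hi from that of F4/80lo gave 1.12 (interval -0.63 to 2.87, adjusted p = 0.999).

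Neutrophils express A1 strongly. By the gating strategy they were set apart as Ly6G+ cells of low F4/80 and MerTK, whereas F4/80hi cells were taken by high F4/80 and MerTK and F4/80lo cells from the Ly6G- remainder. The 9 neutrophil markers summed to 50.6, 51.5 and 148 RPM in F4/80hi VEH libraries 1, 2 and 3 and to 45.5, 36.5 and 44.0 in the CIII libraries. The neutrophil sum was thus lower with CIII in 3 of 3 replicate numbers, as was Bcl2a1b. Most of this sum was S100a8, at a mean of 52.0 RPM with VEH and 11.7 with CIII, and Csf3r, at 27.6 and 27.4. Ly6g, Camp and Ltf had 0 reads in F4/80hi. Over the libraries of a group S100a9 had 8 reads with VEH and 1 with CIII, and Retnlg had 0 and 4. Of the 9 markers 2 were tested in F4/80hi, S100a8 with a log2 difference of -2.0 (SE 0.56, limma adjusted p = 0.992, rank 22 by p, ahead of all 10 members) and Csf3r with one of 0.25 (adjusted p = 0.999). Between 4 and 7 of the 9 markers were at 0 in a library. In F4/80lo the sum was 24.1 to 90.2 with VEH and 21.8 to 53.0 with CIII, and the part of neutrophils in the Bcl2a1b values was not tested.

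The A1 locus is duplicated in the mouse, and the copies are nearly identical, so that reads can be split among them or left out. The first 120 coding bases of Bcl2a1a, Bcl2a1b and Bcl2a1d are shown because they hold 7 of the 12 coding positions, of 516, at which these 3 copies are not all alike. These positions are in capitals, and each stretch is given 5′ to 3′ on its coding strand of GRCm38 (GENCODE M21), within 1 coding exon.
Bcl2a1a, chr9:88957051-88957170, plus strand: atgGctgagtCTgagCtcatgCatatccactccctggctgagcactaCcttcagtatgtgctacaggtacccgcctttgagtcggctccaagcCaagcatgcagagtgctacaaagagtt
Bcl2a1b, chr9:89199360-89199479, plus strand: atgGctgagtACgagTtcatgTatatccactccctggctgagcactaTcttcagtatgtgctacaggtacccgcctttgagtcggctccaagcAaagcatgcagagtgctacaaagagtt
Bcl2a1d, chr9:88731600-88731719, minus strand: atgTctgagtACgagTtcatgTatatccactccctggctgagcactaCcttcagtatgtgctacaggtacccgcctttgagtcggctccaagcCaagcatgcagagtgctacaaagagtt

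Over whole transcripts the copies were 98.2% to 99.1% identical. Of the 743 windows of 75 bases in the Bcl2a1b transcript, 43.5% occur letter for letter in another copy. In the last 300 bases, from which 3′ end reads mostly come, this held for 136 of 226 windows. How reads that match several copies were treated is not given in the sources used here.

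Bcl2a1a had 0 to 18.6 normalized counts and Bcl2a1d 0 to 16.3 over the 12 libraries, and Bcl2a1c had 1 read in 1 library and 0 in the other 11. Bcl2a1b took from 40% of the reads of the 3 copies, in F4/80lo VEH library 1, to 95.1% of them, in F4/80hi VEH library 1. In F4/80lo the log2 difference with CIII was -1.06 for Bcl2a1a (limma adjusted p = 0.9996) and -2.39 for Bcl2a1d (adjusted p = 0.9996). In F4/80hi Bcl2a1a had 0, 10.5 and 14.7 normalized counts with VEH and 5.78, 4.81 and 9.30 with CIII. Its mean was lower with CIII (6.63 against 8.37), while the fitted log2 difference was 0.39 (adjusted p = 0.999), since 1 VEH library was at 0 on the log scale, so that it gave no clear direction. Bcl2a1d was below the filter there.

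Summed over the 3 copies, the normalized counts in F4/80hi were 109, 45.7 and 101 with VEH and 49.1, 31.2 and 17.5 with CIII. In F4/80lo they were 58.2, 61.6 and 35.0 with VEH and 25.5, 18.3 and 35.4 with CIII. The ranges overlapped in each subpopulation, by VEH library 2 and CIII library 1 in F4/80hi and by the number 3 libraries in F4/80lo. The difference of the sum was taken on log2(RPM + 1), with RPM from total reads on genes and no TMM scaling. It was -1.27 in F4/80hi (exact permutation test, two-sided, p = 0.2) and -0.88 in F4/80lo (exact p = 0.2). With 3 libraries against 3 this test cannot give less than 0.1. The Bcl2a1b differences above used normalized counts, so the scales differ.

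**Figure D3:**
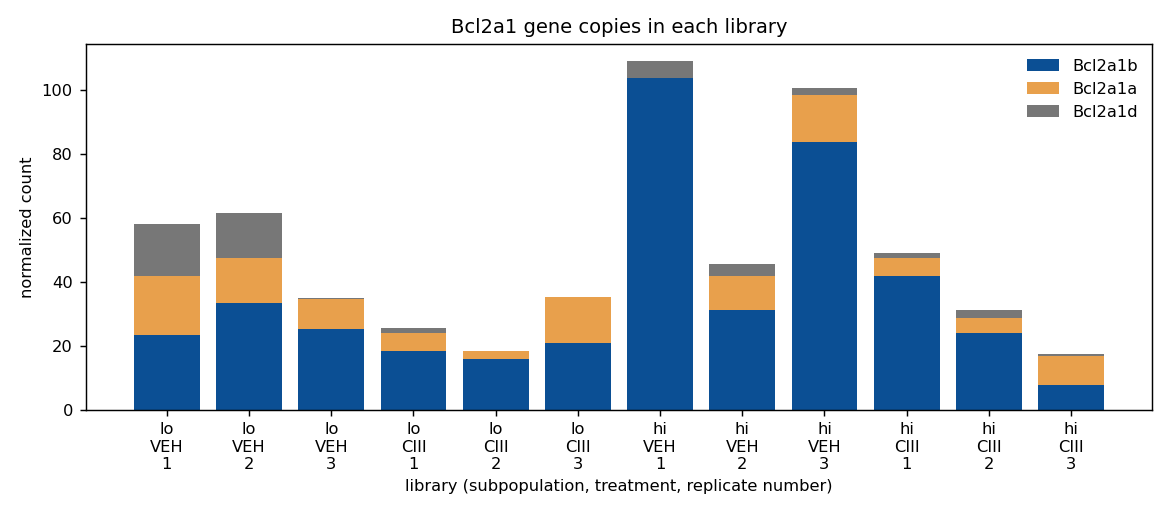
Deposited normalized counts (linear axis, from 0) of Bcl2a1b, Bcl2a1a and Bcl2a1d, stacked, in each library. The F4/80lo and F4/80hi libraries were normalized separately, so bar heights compare within a subpopulation only. The tallest stacks are F4/80hi VEH 1 and 3, at 109 and 101.

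Mcl1, whose short-lived protein many myeloid cells need for survival, differed little between treatments. In F4/80lo it stood at 518, 569 and 790 normalized counts with VEH and 604, 427 and 923 with CIII, and in F4/80hi at 364, 357 and 702 with VEH and 479, 382 and 650 with CIII. The groups overlapped in both subpopulations, and the number 3 library was the highest in each group. The log2 differences were 0.01 (interval -0.84 to 0.86, limma adjusted p = 0.9996) in F4/80lo and 0.13 (interval -0.76 to 1.02, adjusted p = 0.999) in F4/80hi. These intervals leave room for differences of 0.76 on the log2 scale in either direction.

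Bcl2l1, whose main product Bcl-xL is anti-apoptotic, had 36.1, 23.1 and 31.0 normalized counts in F4/80lo VEH and 21.3, 25.1 and 18.8 in F4/80lo CIII. In F4/80hi the values were 31.9, 34.0 and 28.3 with VEH and 20.2, 15.6 and 53.1 with CIII. CIII libraries 1 and 2 lay below all VEH libraries there and library 3 above them. The log2 differences were -0.44 (SE 0.46, limma adjusted p = 0.9996) and -0.27 (SE 0.51, adjusted p = 0.992), and without the number 3 libraries the second was -0.85.

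**Figure D4:**
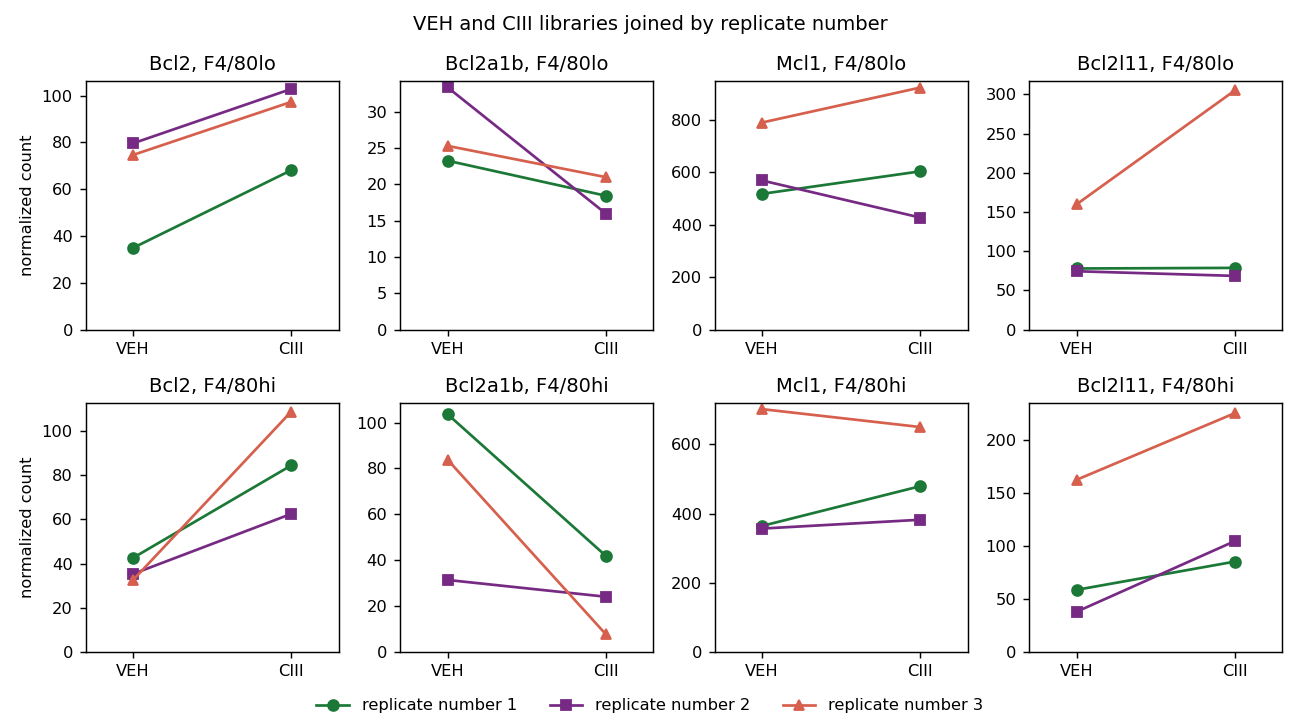
Deposited normalized counts (linear axes, from 0) of Bcl2, Bcl2a1b, Mcl1 and Bcl2l11 with VEH and CIII, joined by replicate number, for F4/80lo (top) and F4/80hi (bottom). The 3 Bcl2 lines go up and the 3 Bcl2a1b lines go down in each subpopulation, and for Mcl1 and Bcl2l11 the line of replicate number 3 lies above the other 2.

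The effector Bax had 141, 261 and 164 normalized counts in F4/80lo VEH and 124, 151 and 89.5 in F4/80lo CIII. The CIII library was the lower one within each replicate number (-0.86 to -0.18), while the groups overlapped. The log2 difference was -0.61 (SE 0.37, interval -1.42 to 0.21, limma adjusted p = 0.9996), and the fit with the replicate block gave an adjusted p = 0.710. In F4/80hi the Bax values were 132, 107 and 227 with VEH and 116, 112 and 104 with CIII, a difference of -0.41 (SE 0.36, adjusted p = 0.992), and one of -0.06 without the number 3 libraries.

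Bak1, the other effector, had 204, 243 and 132 normalized counts in F4/80lo VEH and 336, 164 and 189 in F4/80lo CIII. In F4/80hi it had 160, 290 and 187 with VEH and 214, 138 and 150 with CIII. The ranges overlapped in both subpopulations, and the differences of 0.23 (SE 0.39, limma adjusted p = 0.9996) and -0.32 (SE 0.36, adjusted p = 0.992) had opposite signs. The difference between these responses was 0.54 (SE 0.52, interval -0.58 to 1.67, adjusted p = 0.999).

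Bcl2l11 encodes Bim, a BH3-only protein that binds all the anti-apoptotic members and is induced when growth factors are withdrawn. In F4/80hi it had 58.5, 37.9 and 162 normalized counts with VEH and 85.2, 105 and 225 with CIII. The CIII library was the higher one within each replicate number (0.47 to 1.44 on the log2 scale), but VEH library 3 exceeded CIII libraries 1 and 2. The difference was 0.82 (SE 0.58, interval -0.48 to 2.11, limma adjusted p = 0.992), and the fit with the replicate block gave an adjusted p = 0.330. In F4/80lo the values were 78.0, 74.5 and 160 with VEH and 78.7, 68.5 and 305 with CIII, and the difference of 0.27 (SE 0.56, adjusted p = 0.9996) came from library 3, since without the number 3 libraries it was -0.05.

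Bbc3, which encodes the p53 target Puma, varied widely among the libraries of a group. Its values were 44.2, 121 and 23.3 in F4/80lo VEH, 48.9, 128 and 45.3 in F4/80lo CIII, 79.8, 57.5 and 31.4 in F4/80hi VEH and 22.4, 62.5 and 46.5 in F4/80hi CIII. In F4/80lo library 2 stood far above the other libraries of both treatments. The differences were 0.39 (SE 0.60, limma adjusted p = 0.9996) in F4/80lo and -0.37 (SE 0.50, adjusted p = 0.992) in F4/80hi.

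Bid, which links death receptors to mitochondria once caspase-8 cleaves it, had 38.4, 25.7 and 22.0 normalized counts in F4/80lo VEH and 31.9, 48.0 and 40.9 in F4/80lo CIII. In F4/80hi it had 29.3, 17.0 and 37.7 with VEH and 28.2, 25.2 and 19.7 with CIII. The groups overlapped in both, with differences of 0.49 (SE 0.44, limma adjusted p = 0.9996) and -0.14 (SE 0.45, adjusted p = 0.999).

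Bad, whose activity survival kinases block by phosphorylation, had 25.6, 12.8 and 21.0 normalized counts in F4/80lo VEH and 50.4, 38.8 and 21.0 in F4/80lo CIII. Libraries 1 and 2 were higher with CIII and library 3 was level between the treatments (log2 difference 0.0013). The fitted difference was 0.83 (SE 0.51, interval -0.30 to 1.95, limma adjusted p = 0.9996), and 1.24 without the number 3 libraries (adjusted p = 0.849). In F4/80hi the values were 43.9, 11.8 and 30.4 with VEH and 26.7, 33.7 and 28.4 with CIII, a difference of 0.22 (SE 0.52, adjusted p = 0.999).

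**Figure D5:**
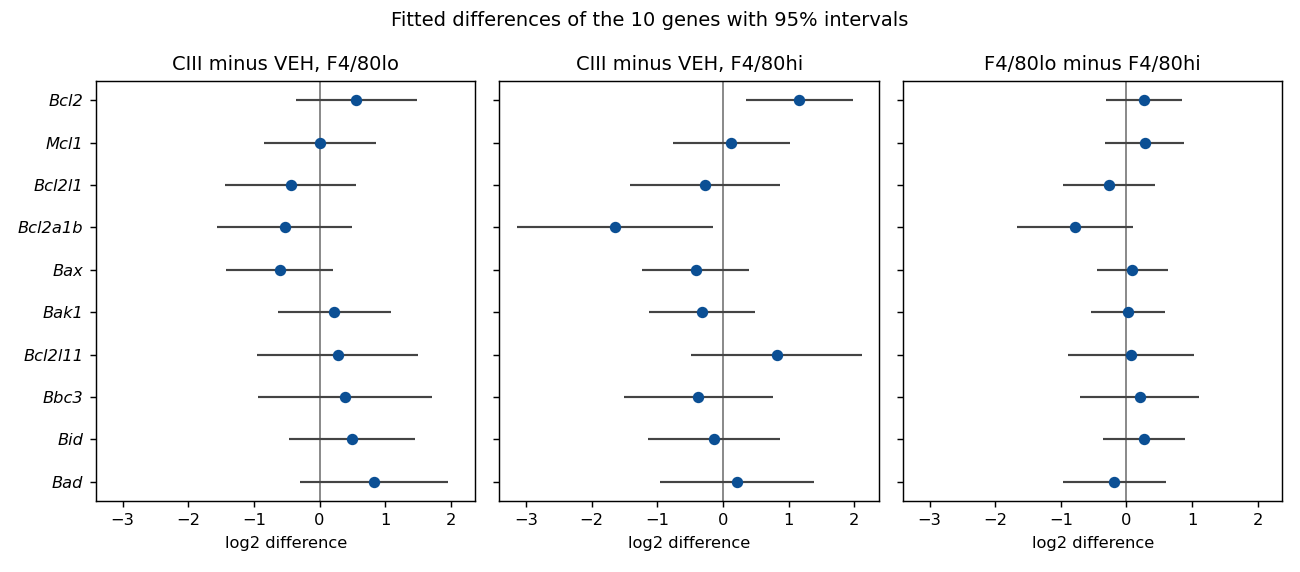
Fitted log2 differences (points) with 95% intervals (lines) for the 10 genes: CIII minus VEH in F4/80lo (left), CIII minus VEH in F4/80hi (middle) and F4/80lo minus F4/80hi over both treatments (right). Of the 30 intervals, those of Bcl2 (0.35 to 1.98) and Bcl2a1b (-3.14 to -0.16) in F4/80hi lie wholly on 1 side of 0, before adjustment over all genes.

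The response to CIII was compared directly between the subpopulations for all 10 genes. None of them passed an adjusted p of 0.05 (limma), as was so for 0% of the 10097 genes tested in both. Likewise 0 members had an unadjusted p under 0.05, against 1.71% of all genes, and 0 with the replicate block, against 5.34%. The differences (F4/80lo minus F4/80hi) were positive for 5 members and negative for 5, from -0.60 for Bcl2 to 1.12 for Bcl2a1b. Those not given above were -0.12 for Mcl1, -0.16 for Bcl2l1, -0.20 for Bax, -0.54 for Bcl2l11, 0.76 for Bbc3, 0.63 for Bid and 0.61 for Bad.

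The number 3 libraries were also set beside numbers 1 and 2 for each of these genes. Mcl1 and Bcl2l11 were highest in the number 3 library in 4 of 4 groups, a pattern that 14.9% of the 10097 genes shared. For Bcl2l11 the number 3 value was 305 against a mean of 73.6 for numbers 1 and 2 in F4/80lo CIII, and 162 against 48.2 in F4/80hi VEH. Bbc3 was lowest in the number 3 library in 3 of 4 groups, and the share of all genes with that pattern was not counted. For the other 7 genes the number 3 library was highest in at most 1 group and lowest in at most 2. The part of the high Gm42418 share in these values was not tested.

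Levels were then compared between the subpopulations, in TMM-scaled RPM, since the deposited tables were normalized separately. None of the 10 genes passed an adjusted p of 0.05 (limma). Of the 10726 genes tested, 1 was called higher in F4/80lo (0.00932%) and 1 higher in F4/80hi (0.00932%). The 6 F4/80lo and 6 F4/80hi libraries overlapped for all 10 members, against 0.839% of genes for which they did not. The members' median log2 difference was 0.08 beside -0.003 for all genes, with 7 higher in F4/80lo and 3 higher in F4/80hi. At an unadjusted p under 0.05 there were 0 members, against 9.29% of all genes. For this comparison the block was treatment with replicate number, which pairs F4/80lo and F4/80hi libraries, a pairing the labels do not state. With it 463 genes were called, none of them a member. In that fit 1 member (Bcl2a1b) was at an unadjusted p under 0.05, against 19.6% of all genes.

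Bcl2a1b came nearest to a difference in level. It had 15.4 to 32.9 RPM (median 21.9) in F4/80lo and 8.44 to 110 (median 39.9) in F4/80hi, and the log2 difference was -0.79 (SE 0.41, interval -1.66 to 0.09, limma adjusted p = 0.585). Its highest group was F4/80hi VEH, at 77.6 ± 39.5 (SD, n = 3), followed by F4/80lo VEH at 27.4 ± 5.14, F4/80hi CIII at 27.0 ± 19.0 and F4/80lo CIII at 18.4 ± 2.77. The lowest F4/80hi VEH library, 33.4, barely exceeded the highest F4/80lo VEH library, 32.9. The share of all genes whose VEH libraries separate in this way was not counted. With VEH libraries only the difference was -1.30 (adjusted p = 0.975).

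Bcl2 had 34.2 to 99.3 RPM (median 78.3) in F4/80lo and 34.7 to 120 (median 56.4) in F4/80hi, with a log2 difference of 0.27 (SE 0.27, limma adjusted p = 0.800). Its order was F4/80hi CIII at 93.8 ± 26.1, F4/80lo CIII at 88.7 ± 16.4, F4/80lo VEH at 63.6 ± 25.5 and F4/80hi VEH at 39.1 ± 5.31 (SD, n = 3 each). Neighbours in this order overlapped, the 2 VEH groups only through F4/80lo VEH library 1, at 34.2. F4/80lo VEH libraries 2 and 3 were at 78.5 and 78.0, against 34.7 to 45.0 in F4/80hi VEH.

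Mcl1 was at 650 ± 255 RPM in F4/80lo CIII, 631 ± 171 in F4/80lo VEH, 554 ± 152 in F4/80hi CIII and 505 ± 212 in F4/80hi VEH, a subpopulation difference of 0.28 (SE 0.28, interval -0.32 to 0.88). Bcl2l1 ran from 33.4 ± 3.00 in F4/80hi VEH, through 32.6 ± 22.6 in F4/80hi CIII and 30.2 ± 6.55 in F4/80lo VEH, to 21.6 ± 2.78 in F4/80lo CIII, a difference of -0.27 (SE 0.33, interval -0.97 to 0.43). Neighbouring groups overlapped for both genes.

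Bax was at 189 ± 61.6 RPM in F4/80lo VEH, 166 ± 68.3 in F4/80hi VEH, 121 ± 6.35 in F4/80hi CIII and 121 ± 28.8 in F4/80lo CIII, so that both VEH means stood above both CIII means. Bak1 was at 230 ± 99.3 in F4/80lo CIII, 226 ± 73.8 in F4/80hi VEH, 192 ± 51.3 in F4/80lo VEH and 184 ± 46.0 in F4/80hi CIII. Neighbouring groups overlapped for both effectors, and the subpopulation differences were 0.09 (limma adjusted p = 0.948) and 0.02 (adjusted p = 0.988).

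Bcl2l11 was at 152 ± 84.0 RPM in F4/80hi CIII, 150 ± 133 in F4/80lo CIII, 106 ± 53.3 in F4/80lo VEH and 92.0 ± 71.5 in F4/80hi VEH, and Bbc3 at 73.0 ± 43.9 in F4/80lo CIII, 62.2 ± 50.1 in F4/80lo VEH, 59.8 ± 25.4 in F4/80hi VEH and 48.0 ± 21.7 in F4/80hi CIII. Bid was at 39.9 ± 6.86 in F4/80lo CIII, 29.8 ± 11.2 in F4/80hi VEH, 28.6 ± 7.85 in F4/80lo VEH and 26.8 ± 4.76 in F4/80hi CIII, and Bad at 36.7 ± 15.3 in F4/80lo CIII, 32.5 ± 3.62 in F4/80hi CIII, 30.5 ± 17.0 in F4/80hi VEH and 19.9 ± 6.45 in F4/80lo VEH. For these BH3-only genes neighbours in the order overlapped, and the subpopulation differences of 0.07, 0.20, 0.27 and -0.19 had limma adjusted p-values of 0.818 to 0.980.

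The genes whose levels followed Bcl2 most closely over the 12 libraries, among the 10096 others tested in both subpopulations, were Scfd2 (Pearson r = 0.897), Acvr1b (0.889), Rap1gds1 (0.887), Ndst2 (0.872) and Rabep2 (0.870). Acvr1b encodes an activin receptor and Ndst2 an enzyme of heparan sulfate synthesis. These correlations are a description over libraries of uneven depth, some of which share a replicate number.

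Of 47 further genes of the pathway, none passed an adjusted p of 0.05 in any comparison (limma). With CIII, 37 were tested in F4/80lo, where at an unadjusted p under 0.05 there were 4 higher (Bmf, Tnfrsf1a, Foxo3 and Cx3cr1) and 1 lower (Bnip3l), 5 of 37 against 2.7% of all genes, and the median log2 difference was 0.007. In F4/80hi 36 were tested, with 2 higher (Foxo3 and Cx3cr1) and 1 lower (Cycs), 3 of 36 against 3.93% of all genes, and a median of 0.17. The list was drawn up with earlier results of these data known, and 2 of its members, Bcl2a1a and Bcl2a1d, can share reads with Bcl2a1b.

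Among the other BH3-only genes, Bmf had a log2 difference of 1.64 with CIII in F4/80lo (SE 0.72) and 1.56 in F4/80hi (SE 0.90), and Pmaip1, which encodes Noxa, one of 0.28 and -0.09. The gating strategy set dendritic cells aside as CD11c+ MHCII+. In F4/80lo the fitted differences of the 5 dendritic cell markers tested were positive with CIII (median 1.27), with Btla (2.08) and Cdh1 (2.33) at an unadjusted p under 0.05 and 0 after adjustment. Their means did not all follow: Cd209a was lower with CIII, at 43.7 against 75.1 normalized counts, and Zbtb46 was level at 25.2 in both groups. The 7 listed summed to 8.36 to 229 RPM with VEH and 43.0 to 183 with CIII, and their part in the Bmf difference was not tested. Of the survival receptors, the fractalkine receptor gene Cx3cr1 had 1.49 in F4/80lo (adjusted p = 0.9996) and 1.71 in F4/80hi (adjusted p = 0.992), with Csf1r at 0.77 in the first and Csf2rb at 0.34 in the second. Among the regulators upstream of the family, Foxo3, which encodes a transcription factor known to act on Bcl2l11 and Bbc3, had 1.16 (SE 0.43) and 1.31 (SE 0.43), with limma adjusted p-values of 0.9996 and 0.992, beside -0.47 for Trp53 in F4/80lo and -0.61 for Cdkn1a in F4/80hi.

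Downstream of mitochondria, cytochrome c (Cycs) had a difference of -0.90 with CIII in F4/80hi (SE 0.39) and Casp9 one of 0.77, while in F4/80lo Casp2 and Casp6 had 1.66 and 0.85. The inhibitors and their antagonists with the smallest p-values were Xiap (-0.36) and Diablo (-0.42) in F4/80lo and Diablo (-0.81) and Birc2 (0.62) in F4/80hi. In the death receptor pathway they were Tnfrsf1a (0.72) and Ripk1 (-2.10) in F4/80lo and Fadd (-1.27) and Tnfrsf1a (0.31) in F4/80hi. The less typical family genes gave Bnip3l (-1.40) and Bnip3 (1.70) in F4/80lo and Bnip3l (-0.42) and Bcl2l12 (0.63) in F4/80hi, and the anti-apoptotic gene Bcl2l2 had 0.21 in F4/80hi.

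Between the subpopulations, 37 of the 47 genes were tested, with 5 higher in F4/80lo and 1 higher in F4/80hi at an unadjusted p under 0.05, 6 of 37 against 9.29% of all genes, and a median log2 difference of 0.05. Both measured BH3-only genes of the list were among the 5, with log2 differences of 1.41 for Pmaip1 (limma adjusted p = 0.322) and 1.27 for Bmf (adjusted p = 0.496), and the 4 BH3-only members lay between -0.19 and 0.27. Dendritic cell markers had differences in the same direction: 5 of 5 tested, of 7 listed, were positive with a median of 2.84, 4 of them at an unadjusted p under 0.05 and 0 after adjustment. The 7 summed to 8.36 to 229 RPM in F4/80lo, with at most 1 at 0 in a library, and to 4.22 to 23.7 in F4/80hi, with 2 to 5 at 0, and their part in these differences was not tested. Cx3cr1 differed by 2.74 (adjusted p = 0.0558), Ddit3 by 0.91, Bcl2l13 by 0.83 and Bnip3l by -1.12 (adjusted p from 0.422 to 0.478). The remaining pairs with the smallest p-values were Bcl2l2 (-1.07) and Bcl2a1a (0.55), Cycs (-0.38) and Casp9 (0.38), Diablo (0.52) and Htra2 (-0.32), Fas (-0.76) and Fadd (0.64), and singly Cdkn1a (-0.19) and Csf2rb (0.50). For the difference in response, 36 were tested and none had an unadjusted p under 0.05, the pairs being Bcl2a1a and Bcl2l2, Pmaip1 and Bmf, Bnip3l and Bnip3, Casp6 and Casp2, Birc2 and Xiap, Ripk1 and Tradd, Cdkn1a and Ddit3, and Csf1r and Csf2ra, with adjusted p-values of 0.999.

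Several of the 10 genes overlap other annotated genes. Reads of genes on opposite strands cannot be told apart if strand was not used in counting: Bid overlaps Bcl2l13 in this way (268 reads over the 12 libraries), Bad overlaps Gpr137 (166 reads), Bak1 overlaps Ggnbp1 (40 reads) and Bcl2 overlaps D630008O14Rik (0 reads). Reads of genes on the same strand are ambiguous where they overlap whether or not strand was used. On the same strand Bcl2a1b overlaps Gm29094, which had 8 reads, Bid overlaps Gm44260 (7 reads), Bcl2 overlaps Gm37053 (1 read), and Bax overlaps the protein-coding gene Gm45808, which was not analysed here.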

How the data were processed

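QuantSeq 3′ mRNA libraries were aligned by the authors with STAR to GRCm38, collapsed by molecular identifier and counted with HTSeq, and each deposited table (1 per subpopulation) holds signal values, i.e. read counts divided by 1 DESeq2 size factor per library. Whole reads were recovered for 100% of values (tolerance 0.01). No column was left unused. The 10 genes and the other gene lists were chosen with earlier results of these data known; all 10 genes are named whatever their values, and of the lists the A1 copies, the 2 genes per list with the smallest p and the 5 genes most like Bcl2.

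CIII was compared with VEH within each subpopulation by limma 3.58.1 (R 4.3.3; trend, two-sided) on log2(normalized count + 1), so that low genes' differences are understated, for genes with a mean of at least 3, with Benjamini-Hochberg adjustment. Differences in response used all 12 libraries. Levels between subpopulations used log2(RPM + 1) after TMM scaling of the recovered reads. edgeR 4.0.16 and DESeq2 1.42.0 on recovered reads, a pseudocount of 5, other filters and scaling, leaving out libraries, and a replicate block were alternatives. The code was tested on simulated data. Replicate numbers were taken to pair the libraries, since the deviations of same-numbered libraries correlated at 0.121 to 0.639 between treatments and at 0.263 to 0.691 between subpopulations. Number 3 stood apart. In F4/80lo and F4/80hi, VEH library 1 correlated at 0.171 and 0.285 with CIII library 2, against 0.121 and 0.216 with CIII library 1, and VEH library 2 at 0.238 and 0.412 with CIII library 2, against 0.0972 and 0.152 with CIII library 1. Sequences came from GENCODE M21.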

Additional observations from a re-analysis of the deposited data

How the results depend on the processing

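The count of members past an adjusted p of 0.05 was 0 in the 4 comparisons under every alternative run, and the replicate block, which pairs the libraries by number, changed no member's call. Counts over all genes moved: between F4/80lo and F4/80hi 2 genes were called, against 463 with the block, 144 with DESeq2, 10 with a pseudocount of 5, 4 with scaling to total reads, 0 without a filter, 0 with VEH libraries only and 330 with numbers 1 and 2 only (an alternative chosen after seeing the data). With 1 library left out this count was 0 to 142, the highest without F4/80hi VEH replicate 3. In F4/80lo DESeq2 called 2 and numbers 1 and 2 alone 12, none of them a member. With CIII the unadjusted p was under 0.05 for 289 genes in F4/80lo and 413 in F4/80hi, with the block for 738 and 1187, and with 1 library left out for 151 to 687 and 229 to 1038, the highest in each case without VEH replicate 3. Bcl2 in F4/80hi stayed under an unadjusted p of 0.05 with each of the 6 libraries left out in turn, and Bcl2a1b with 2 of them (VEH replicate 2 or CIII replicate 1).

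Signs of small differences changed. With numbers 1 and 2 only, Mcl1 in F4/80lo was at -0.10, Bcl2l11 in F4/80lo at -0.0518, Bid in F4/80hi at 0.25, the response difference of Bcl2l1 at 0.54 and the level difference of Bad at 0.0065. With CIII libraries only, the level differences were -0.0790 for Bcl2, -0.0561 for Bax, -0.25 for Bcl2l11 and 0.0677 for Bad. With VEH libraries only they were -0.21 for Bak1, -0.13 for Bbc3 and -0.0018 for Bid.

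With 1 library left out, the differences in F4/80lo ran from -0.28 to 0.28 for Mcl1, -0.0816 to 0.43 for Bak1, -0.41 to 0.66 for Bcl2l11 and -0.15 to 1.01 for Bbc3. In F4/80hi they ran from -0.0728 to 0.45 for Mcl1, -0.78 to 0.0680 for Bcl2l1, -0.73 to 0.0373 for Bbc3, -0.45 to 0.11 for Bid and -0.30 to 0.61 for Bad. In response they ran from -0.44 to 0.15 for Mcl1, -0.50 to 0.35 for Bcl2l1 and -0.51 to 0.0633 for Bax, and in level from -0.45 to 0.0125 for Bcl2l1, -0.0348 to 0.26 for Bax, -0.14 to 0.14 for Bak1, -0.28 to 0.38 for Bcl2l11 and -0.10 to 0.45 for Bbc3. The cause was not tested. Bcl2 and Bcl2a1b in F4/80hi kept their signs in every alternative. Depth was as low as 7 reads for a gene in a library, with 3 libraries a group.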
